A study of Homo sapiens with 8 samples.

Results

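Solute carriers (SLCs) are the membrane proteins that move amino acids, sugars, nucleosides, vitamins, metals and ions into and out of cells and organelles, and the genes followed here were those of the SLC families on the array. Members were taken by symbol alone, from probe sets with a single gene symbol of the form SLC, family number, A, member number, except SLC2A1, SLC3A2, SLC7A1, SLC7A5, SLC7A11 and SLC27A2. Where a gene had several probe sets, the one with the highest mean over all 8 arrays was used. This gave 138 genes of 41 families, of the 8226 genes with a single-symbol probe set, and 170 probe sets of the 12558 tested. Of the members, 110 had 1 probe set, 24 had 2 and 4 had 3. The array held 144 SLC genes by this pattern, 6 of which were left out.

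Expression was measured in 2 human prostate cancer cell lines carrying either activated Notch1, which needs no ligand to signal, or green fluorescent protein (GFP) as control. LNCaP is an androgen-responsive line from a lymph node metastasis, whereas PC3 is an androgen-independent line from a bone metastasis. The 4 groups were LNCaP Notch1, LNCaP GFP, PC3 Notch1 and PC3 GFP, with 2 arrays each. The study described the Notch activation as acute, and for these cells neither the delivery of the constructs nor the time of harvest is given in the sources used here. According to the methods each sample was run on 2 chips. The p-values therefore reflect array-to-array spread alone, possibly technical, and each group value below rests on n = 2 arrays.

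Carriers of these families work in a few ways. Uniporters and exchangers let a substrate run down its own gradient or swap it for another, while cotransporters draw on the sodium or proton gradient set by ATP-driven pumps. Some sit at the cell surface, and others serve the mitochondrial inner membrane, the Golgi apparatus or vesicles. Prostate epithelium is known for its zinc handling, in which ZIP carriers (SLC39) bring zinc into the cytosol and ZnT carriers (SLC30) move it out of the cytosol. Cancer cells often depend on carriers of glutamine, leucine and nucleosides for growth.

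All values are log2 expression values as deposited. Array medians were 6.28 to 6.36 in LNCaP and 5.95 to 6.01 in PC3, and no source says whether both lines were normalized together. Between 31.9% and 33% of probe sets on an LNCaP array and between 36.6% and 37.6% on a PC3 array lay under log2 5, where changes depend on the array background, and 36 of the 138 members lay under it on all arrays. HES1, a transcriptional repressor and canonical Notch target, rose 6.88-fold in LNCaP Notch1 cells (log2 2.78, SE 0.12, adjusted p = 3.12e-07) and 5.89-fold in PC3 Notch1 cells (log2 2.56, SE 0.12, adjusted p = 4.22e-07). The androgen-regulated LNCaP markers KLK3, KLK2 and TMPRSS2, 3 of 3 measured, were higher in LNCaP GFP than in PC3 GFP cells (log2 1.49, 5.20 and 3.94), and the PC3 markers VIM, CAV1, CD44 and PLAU, 4 of 4, were lower (log2 -2.92 to -7.32). None of the 4 leukocyte genes measured passed the test in any comparison. Of 4 stroma genes, ACTA2, smooth muscle actin, read 9.57 and 9.33 in LNCaP Notch1 cells and 8.12 and 8.22 in LNCaP GFP cells (log2 1.28, adjusted p = 8.32e-05), and none was called in PC3. The effects of Notch1 differed between the lines for ACTA2 (1.53, adjusted p = 0.000546) and COL3A1 (0.58, adjusted p = 0.0492), and in LNCaP GFP relative to PC3 GFP cells ACTA2 and COL3A1 were higher (3.30 and 0.52) and COL1A2 was lower (-3.91). The ACTB control sets gave a 3′ over 5′ excess, which is larger where RNA is less intact or copied less fully. This excess was 0.45 ± 0.10 in LNCaP Notch1, 0.62 ± 0.06 in LNCaP GFP, 0.33 ± 0.08 in PC3 Notch1 and 0.38 ± 0.07 in PC3 GFP cells (log2, SD, n = 2). For GAPDH it was 0.38 ± 0.03 in LNCaP Notch1 and 0.56 ± 0.01 in LNCaP GFP cells, against -0.06 ± 0.03 in PC3 Notch1 and 0.02 ± 0.07 in PC3 GFP cells. The part of the stroma genes and of these ratios in the results, the comparison of the control cells included, was not tested.

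In LNCaP, carriers that fell with Notch1 outnumbered those that rose. By limma with Benjamini-Hochberg adjustment over all probe sets, 19 of 138 members (13.8%) fell and 5 (3.62%) rose at an adjusted p under 0.05, the threshold for every call below. Over all genes with 1 probe set each, 10.2% fell and 8.47% rose. The metal carriers SLC39A8 and SLC11A2, the glutamate carrier SLC1A1, the zinc carrier SLC30A4, the nucleoside carrier SLC29A2 and the mitochondrial ATP/ADP carrier SLC25A4 fell the most, to between 0.454 and 0.557 of the GFP level. The median change of the members was 0.05, against 0.04 over all genes. Of the members, 120 stayed within 0.5 log2 units, which was not counted over all genes. The LNCaP markers KLK3, KLK2 and TMPRSS2 also fell in the Notch1 cells (log2 -0.75, -1.51 and -0.82). Their part in the carrier changes was not tested. In RNA pooled over many cells, a lower level in each cell and fewer cells that express a gene cannot be told apart.

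In PC3 few carriers moved. The copper importer SLC31A1 and the vitamin C carrier SLC23A2 rose and the amino acid exchanger SLC7A8 and the neutral amino acid carrier SLC6A15 fell, so 2 of 138 members (1.45%) rose and 2 (1.45%) fell. Over all genes 4.36% rose and 2.21% fell. With the replicate number as a block the counts were 4 higher and 7 lower, against 7.78% and 4.87% of all genes in that fit. The PC3 markers CAV1, CD44 and PLAU, 3 of 4, rose in the Notch1 cells (log2 0.68, 0.91 and 0.91), and VIM gave -0.07; their part in the carrier changes was not tested. The median change was -0.17, against -0.07 over all genes, and 31 members had an unadjusted p under 0.05 where LNCaP had 34. SLC23A2 was the 1 member called in both lines, in opposite directions, 27 were called in either line and 111 in neither. Genes with an unadjusted p under 0.05, or called in either line or both, were not counted over all genes. Whether these member counts are ordinary for the array therefore cannot be said.

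**Figure D1:**
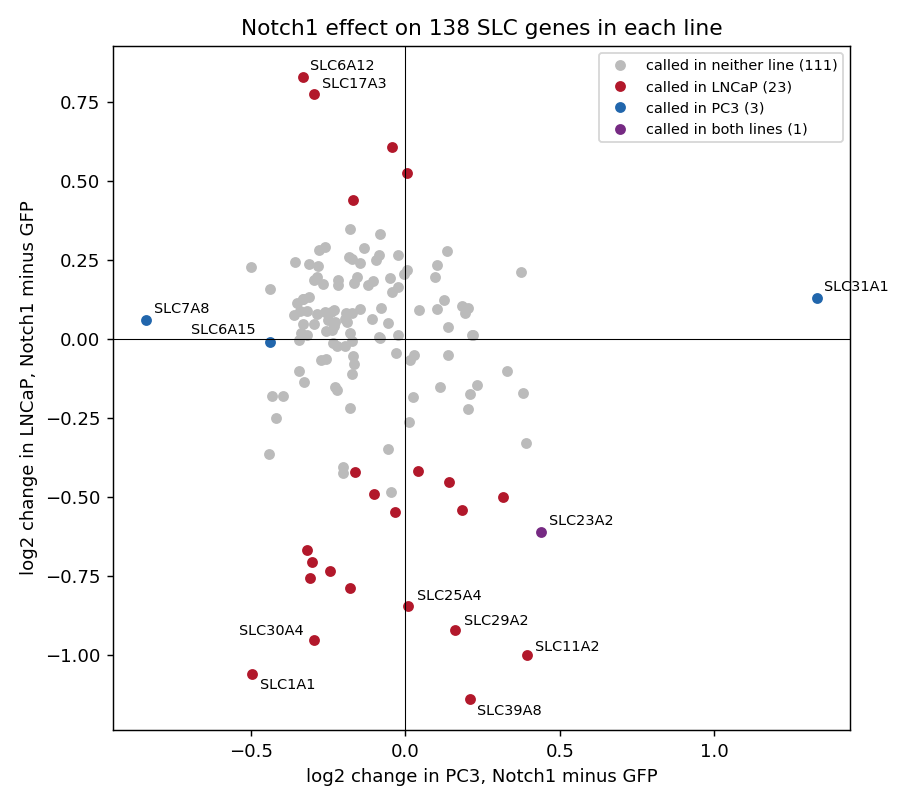
Log2 change with Notch1 in LNCaP (vertical) against that in PC3 (horizontal) for the 138 SLC genes, 1 point each, coloured by the line in which the gene was called. SLC31A1 lies far to the right at 1.33 in PC3 and 0.13 in LNCaP, and most called genes lie below 0 in LNCaP and between -0.5 and 0.5 in PC3.

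The largest single change among members in either line was that of a metal carrier. Of 13 members, 3 (23.1%) fell and none rose in LNCaP, with a median of -0.14, and 1 (7.69%) rose and none fell in PC3, with a median of -0.08. Over all genes 10.2% fell and 8.47% rose in LNCaP, and 2.21% fell and 4.36% rose in PC3. SLC39A8 (probe set 40456_at, chromosome 4), the ZIP8 protein that brings zinc, manganese and iron into the cytosol, read 6.005 and 6.044 on the LNCaP Notch1 arrays and 6.96 and 7.37 on the LNCaP GFP arrays. Its change was -1.14 (SE 0.17, adjusted p = 0.000846), a fall to 0.454 of the GFP level. In PC3 it read 7.16 and 7.08 with Notch1 and 6.71 and 7.11 with GFP. The PC3 arrays overlapped, and the change there was 0.21 (adjusted p = 0.443).

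SLC11A2 (35320_at, chromosome 12), the divalent metal transporter that takes up iron, read 6.43 and 6.27 in LNCaP Notch1 cells and 7.13 and 7.57 in LNCaP GFP cells, a change of -1.0 (SE 0.16, adjusted p = 0.00182). In PC3 both Notch1 arrays (6.11 and 6.35) lay above both GFP arrays (5.74 and 5.94), and the change was 0.40 (adjusted p = 0.171). Such separation was common in PC3, where of all 8226 genes Notch1 lay apart above GFP for 1799 and apart below for 2897. Among the 138 members the PC3 counts were 21 and 70. SLC30A4 (37440_at, chromosome 15), the ZnT4 protein that moves zinc from the cytosol into vesicles, read 6.76 and 6.77 in LNCaP Notch1 cells and 7.63 and 7.80 in LNCaP GFP cells, a change of -0.95 (SE 0.12, adjusted p = 0.00026). In PC3 it lay under log2 5 on every array, with 3.09 and 3.14 in Notch1 cells and 3.46 and 3.36 in GFP cells. A second, dim probe set of SLC30A4 gave -0.20 in LNCaP (adjusted p = 0.324).

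SLC31A1 (40364_at, chromosome 9), the high-affinity copper importer of the cell surface, showed the opposite pattern. It read 7.96 and 7.87 in PC3 Notch1 cells and 6.33 and 6.84 in PC3 GFP cells, a rise of 1.33 or 2.52-fold (SE 0.17, adjusted p = 0.000924). In LNCaP, where it read 8.52 and 8.36 with Notch1 and 8.20 and 8.42 with GFP, the groups overlapped (0.13, adjusted p = 0.687). When values under log2 5 were raised to log2 5, the adjusted p of the PC3 rise was 0.0556 at the same log2 change. Its relative SLC31A2, a copper transporter of intracellular membranes, gave 0.35 in LNCaP (adjusted p = 0.0565, or 0.0311 with the replicate number as a block) and -0.18 in PC3 (adjusted p = 0.327). Among the other metal carriers, SLC39A14 gave -0.35 and SLC30A9 -0.36 in LNCaP, with adjusted p-values of 0.0583 and 0.0598, or 0.0353 and 0.0342 with the block. For SLC30A9, a zinc carrier of mitochondria, the PC3 change was -0.44 (adjusted p = 0.0541, or 0.0286 with the block).

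**Figure D2:**
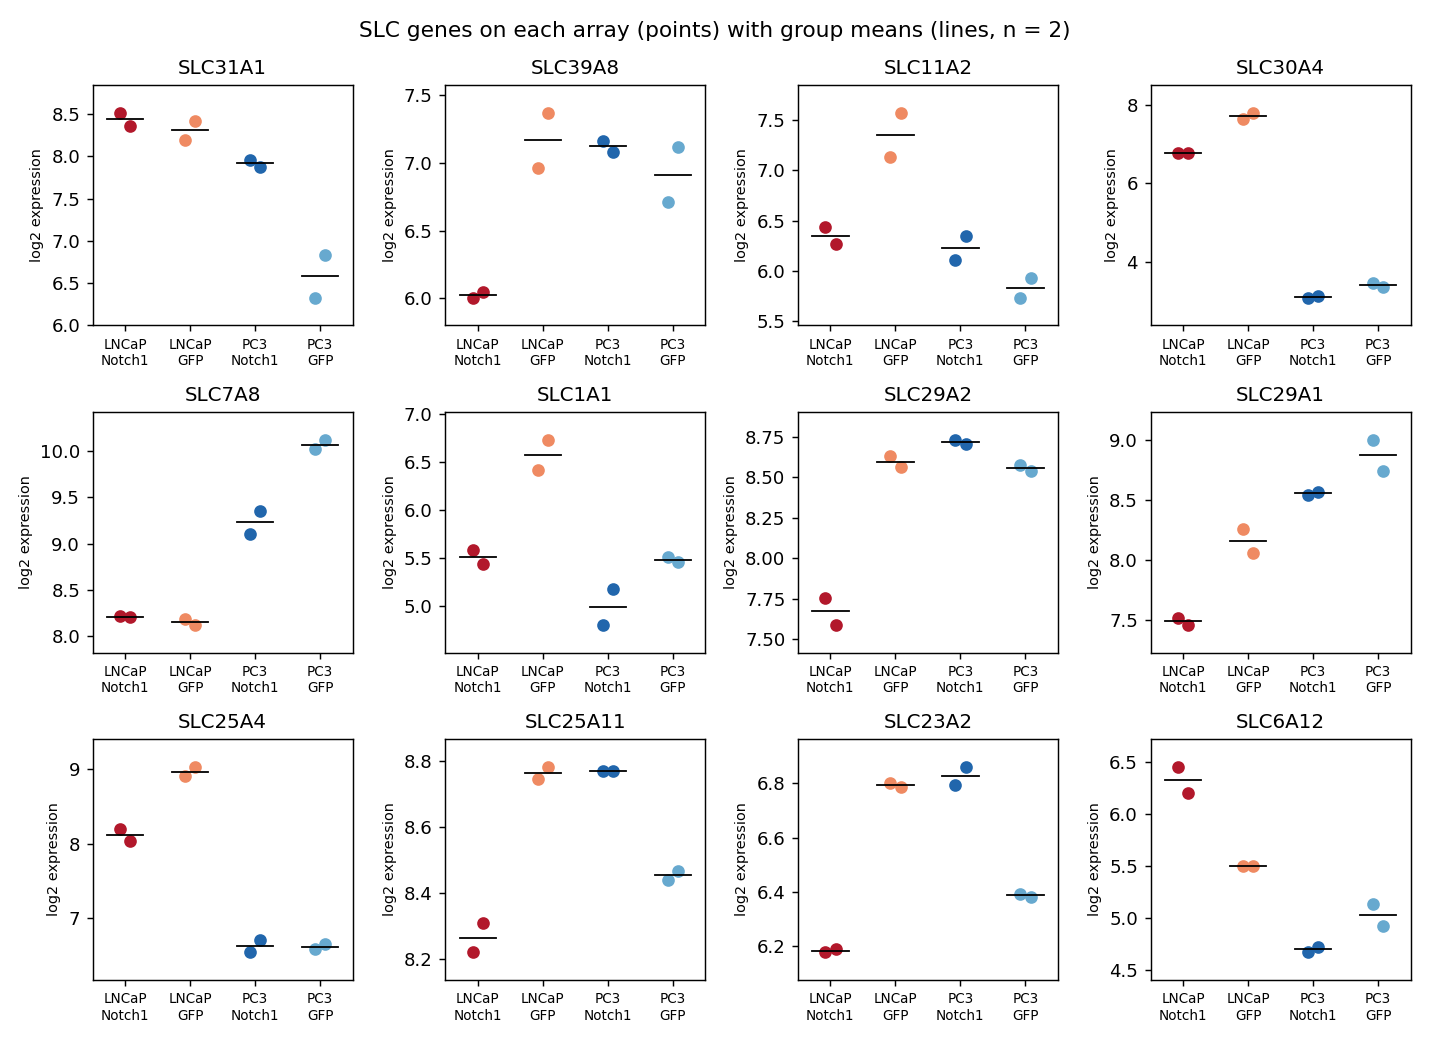
Log2 expression of 12 SLC genes on each of the 8 arrays (points), in the order LNCaP Notch1, LNCaP GFP, PC3 Notch1, PC3 GFP, with the mean of each group as a line (n = 2). SLC39A8, SLC11A2 and SLC29A2 lie lower in LNCaP Notch1 than in LNCaP GFP cells, and SLC31A1 is low in PC3 GFP cells at 6.33 and 6.84 and between 7.87 and 8.52 elsewhere; each panel has its own vertical scale.

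Promoter windows of 4 members are shown because these genes had the largest called change in each direction in PC3 (SLC31A1 and SLC7A8) or, with SLC39A8 and SLC11A2, changed the most among metal carriers in LNCaP. The sequences are those of RefSeq on GRCh38.p14, from 250 bases before to 50 bases after an annotated start, written 5′ to 3′ on the strand of the gene. Capitals mark matches on either strand to TGGGAA, the core letters bound by the Notch partner CSL, and to CACGTG, the E-box bound by MYC-type proteins. Where a gene had several windows, the first with a match is shown.
SLC31A1, chr9:113221294-113221593, plus strand: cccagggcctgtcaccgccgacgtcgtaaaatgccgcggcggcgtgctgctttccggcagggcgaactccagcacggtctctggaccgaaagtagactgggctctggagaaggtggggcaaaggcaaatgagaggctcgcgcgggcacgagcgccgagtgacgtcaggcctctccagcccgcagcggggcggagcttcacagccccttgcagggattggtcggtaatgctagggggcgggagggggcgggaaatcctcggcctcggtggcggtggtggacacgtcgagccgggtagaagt
SLC7A8, chr14:23154344-23154643, minus strand: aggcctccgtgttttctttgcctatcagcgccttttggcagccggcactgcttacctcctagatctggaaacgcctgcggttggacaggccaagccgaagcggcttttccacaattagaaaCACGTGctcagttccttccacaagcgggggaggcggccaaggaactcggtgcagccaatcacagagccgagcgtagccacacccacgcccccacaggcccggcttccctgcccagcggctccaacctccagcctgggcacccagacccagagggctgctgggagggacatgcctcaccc
SLC39A8, chr4:102345433-102345732, minus strand: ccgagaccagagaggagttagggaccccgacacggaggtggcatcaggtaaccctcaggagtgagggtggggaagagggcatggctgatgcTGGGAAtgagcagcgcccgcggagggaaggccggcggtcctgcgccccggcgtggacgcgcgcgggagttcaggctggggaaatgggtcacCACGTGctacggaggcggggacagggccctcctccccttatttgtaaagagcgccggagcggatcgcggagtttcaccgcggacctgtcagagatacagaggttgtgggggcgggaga
SLC11A2, chr12:51028193-51028492, minus strand: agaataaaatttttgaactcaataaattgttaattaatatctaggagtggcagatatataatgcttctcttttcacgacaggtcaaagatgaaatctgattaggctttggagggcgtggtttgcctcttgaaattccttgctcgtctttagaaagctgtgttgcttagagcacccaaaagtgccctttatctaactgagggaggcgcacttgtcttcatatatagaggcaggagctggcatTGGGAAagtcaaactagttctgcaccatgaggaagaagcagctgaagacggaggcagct
The SLC31A1 window held neither motif. In SLC39A8 the TGGGAA match began 159 bases and the E-box 68 bases before the start, in SLC11A2 TGGGAA began 9 bases before it, and in SLC7A8 the E-box began 129 bases before it. Over the 114 members with a window, 24.6% had TGGGAA in at least 1 window, against 28.1% of all 27305 genes with one. CACGTG was found in 19 members (16.7%) and in 8 of the 23 members with a window that were called in either line or in the difference (34.8%), against 8.77% of all genes. Of these 23, 21.7% had TGGGAA and 0% the longer GTGGGAA, against 28.1% and 7.62% of all genes. Genes differ in their number of windows, with 45 for the 23 and 35116 for all 27305. By window, CACGTG was found in 20% and 7.26%. These are matches of letters, without a test, and say nothing of binding in these cells.

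Substrate classes were set by family number, so that a member can carry substrates of another class. In the families of amino acid and peptide carriers 4 of 19 members (21.1%) fell in LNCaP, with none higher, and 1 of 19 (5.26%) fell in PC3. Of all genes 10.2% fell in LNCaP and 2.21% in PC3. The class medians were 0.01 in LNCaP and -0.18 in PC3. SLC1A1 (38268_at, chromosome 9), the glutamate and cysteine carrier EAAT3, read 5.59 and 5.43 in LNCaP Notch1 cells and 6.41 and 6.73 in LNCaP GFP cells, a change of -1.06 (SE 0.16, adjusted p = 0.000894). A second probe set of SLC1A1, at 3.5 to 4.57 in LNCaP, fell by 0.87 (adjusted p = 0.00199). In PC3 SLC1A1 also lay lower on both Notch1 arrays (4.80 and 5.17) than on the GFP arrays (5.51 and 5.46), a change of -0.50 that did not pass the test (adjusted p = 0.0901), and the LNCaP and PC3 effects differed by -0.57 (adjusted p = 0.109).

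SLC7A6, an exchanger of cationic for neutral amino acids, fell by 0.79 in LNCaP (SE 0.14, adjusted p = 0.00314), with 5.61 and 5.54 in Notch1 cells and 6.45 and 6.28 in GFP cells. SLC43A1, the leucine-type carrier LAT3, fell by 0.71 (SE 0.14, adjusted p = 0.00464), with 7.33 and 7.26 in Notch1 cells and 7.98 and 8.02 in GFP cells. SLC38A6, of the sodium-coupled neutral amino acid family, fell by 0.55 (SE 0.16, adjusted p = 0.0398). The groups did not overlap for any of these in LNCaP. Over all 8226 genes in LNCaP, Notch1 lay apart above GFP for 2748 and apart below for 2102. Among the 138 members the counts were 42 and 31. In PC3 the same genes gave -0.18, -0.30 and -0.03, with no call.

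SLC7A8 (41271_at, chromosome 14), the neutral amino acid exchanger LAT2, was the member that fell in PC3 under every alternative run. It read 9.11 and 9.36 in PC3 Notch1 cells and 10.02 and 10.12 in PC3 GFP cells, a change of -0.84 (SE 0.12, adjusted p = 0.00268). In LNCaP it read 8.22 and 8.21 with Notch1 and 8.18 and 8.12 with GFP, a change of 0.06 (adjusted p = 0.828). Both LNCaP groups thus lay well under both PC3 groups. SLC36A1, a proton-coupled amino acid carrier of lysosomes, gave -0.49 in LNCaP (adjusted p = 0.0714, or 0.0146 with the replicate block).

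The 2 equilibrative nucleoside transporters among the members, which let nucleosides and nucleoside drugs cross the cell membrane, fell in LNCaP. That was 2 of 4 nucleoside carriers (50%), against 10.2% of all genes, while none of the 4 passed the test in PC3. SLC29A2 (39661_s_at, chromosome 11), or ENT2, read 7.76 and 7.59 in LNCaP Notch1 cells and 8.63 and 8.56 in LNCaP GFP cells, a change of -0.92 (SE 0.11, adjusted p = 0.000315). SLC29A1 (33901_at, chromosome 6), or ENT1, read 7.52 and 7.46 with Notch1 and 8.26 and 8.05 with GFP, a change of -0.67 (SE 0.13, adjusted p = 0.00498). In PC3 SLC29A2 gave 0.16 (adjusted p = 0.394) and SLC29A1 -0.32 (adjusted p = 0.167). The concentrative carriers SLC28A1 and SLC28A2 gave 0.13 and 0.03 in LNCaP, with no call.

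Vitamin carriers fell in LNCaP in 3 of 5 members (60%), against 10.2% of all genes, with a class median of -0.42. SLC23A2 (38122_at, chromosome 20), which takes up vitamin C with sodium, read 6.18 and 6.19 in LNCaP Notch1 cells and 6.80 and 6.79 in LNCaP GFP cells, a change of -0.61 (SE 0.11, adjusted p = 0.00282). In PC3 it read 6.79 and 6.86 with Notch1 and 6.39 and 6.38 with GFP, a rise of 0.44 (SE 0.11, adjusted p = 0.0406). The PC3 rise lost its call without any 1 of the 8 arrays (adjusted p = 0.0568 to 0.197) and when the PC3 arrays were fitted alone (adjusted p = 0.104). The reduced folate carrier SLC19A1 fell by 0.49 (adjusted p = 0.0212) and the biotin and pantothenate carrier SLC5A6 by 0.42 (adjusted p = 0.0428) in LNCaP, and gave -0.10 and 0.04 in PC3.

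Mitochondrial carriers (SLC25), which move nucleotides, acids and cofactors across the inner membrane, fell in 5 of 18 members in LNCaP and rose in 1, with a median of -0.12. These shares were 27.8% and 5.56%, against 10.2% lower and 8.47% higher over all genes. None of the 18 passed the test in PC3, although SLC25A1, the citrate carrier, gave 0.39 with an adjusted p of 0.0378 with the replicate block. In LNCaP SLC25A1 gave -0.33 (0.0431 with the block), and the difference between the lines was -0.72 (0.00786 with the block). SLC25A4 (32822_at, chromosome 4), the ATP/ADP exchanger ANT1, read 8.20 and 8.04 in LNCaP Notch1 cells and 8.90 and 9.03 in LNCaP GFP cells, a change of -0.84 (SE 0.12, adjusted p = 0.000829). A dim second probe set of SLC25A4 gave 0.18, and with the mean of the pair the change was -0.33 (adjusted p = 0.0689). SLC25A5, the related ANT2, gave -0.15 in LNCaP (adjusted p = 0.775).

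SLC25A16, a family member tied to coenzyme A in mitochondria, fell by 0.74 in LNCaP (SE 0.14, adjusted p = 0.00437), with 6.67 and 6.40 in Notch1 cells and 7.29 and 7.25 in GFP cells. SLC25A36, a pyrimidine nucleotide carrier, fell by 0.54 (adjusted p = 0.0266) and SLC25A11, the oxoglutarate and malate carrier, by 0.50 (adjusted p = 0.00961). SLC25A11 read 8.22 and 8.31 in LNCaP Notch1 cells and 8.74 and 8.78 in LNCaP GFP cells, against 8.77 and 8.77 in PC3 Notch1 cells and 8.44 and 8.47 in PC3 GFP cells. It thus lay lower with Notch1 in LNCaP and higher in PC3, where the change of 0.32 had an adjusted p of 0.114.

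SLC25A13, the aspartate and glutamate carrier citrin, fell by 0.45 in LNCaP (SE 0.13, adjusted p = 0.0394) and gave 0.14 in PC3 (adjusted p = 0.517). Its second probe set (38328_at) fell by 0.60 in LNCaP (adjusted p = 0.0221) and rose by 0.95 in PC3 (adjusted p = 0.00505), with 6.44 and 6.26 in PC3 Notch1 cells and 5.21 and 5.59 in PC3 GFP cells. The probe sets of this gene therefore agreed in direction in LNCaP and differed in size in PC3. With the mean of the pair the PC3 change was 0.55 (adjusted p = 0.0245). SLC25A40, a glutathione carrier of mitochondria, was the member that rose, by 0.61 (adjusted p = 0.0306), at 3.39 and 3.75 in LNCaP Notch1 cells and 2.75 and 3.19 in LNCaP GFP cells. All of its values lay under log2 5.

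Few members of the largest classes passed the test. Of 23 members of the families counted as carriers of transmitters, creatine and osmolytes, which include SLC6A15 and SLC17A3, 2 rose in LNCaP and 1 fell in PC3. These shares were 8.7% and 4.35%, against 8.47% and 2.21% of all genes. SLC6A12 (40679_at, chromosome 12), the betaine and GABA carrier BGT1, read 6.45 and 6.21 in LNCaP Notch1 cells and 5.50 and 5.50 in LNCaP GFP cells, a rise of 0.83 (SE 0.13, adjusted p = 0.00136), the largest among members in that line. In PC3 it read 4.67 and 4.72 with Notch1 and 5.14 and 4.92 with GFP (-0.33, adjusted p = 0.152). SLC17A3, a phosphate and organic anion carrier, rose by 0.78 in LNCaP (SE 0.18, adjusted p = 0.0138), at 4.82 and 5.35 with Notch1 and 4.36 and 4.26 with GFP. With values raised to log2 5 that change was 0.17 (adjusted p = 0.52).

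SLC6A15, a neutral amino acid carrier of neurons, fell by 0.44 in PC3 (SE 0.11, adjusted p = 0.0419) at 4.26 and 4.22 with Notch1 and 4.71 and 4.64 with GFP, under log2 5 on all arrays. Its call was lost without 7 of the 8 arrays, PC3 GFP replicate 2 being the exception (adjusted p up to 0.192). It was also lost with median centring (0.0552), quantile normalization (0.0859), a trended prior (0.0595) and the PC3 arrays alone (0.107). Among 24 carriers of inorganic ions and pH, 1 rose and 1 fell in LNCaP (4.17% each, against 8.47% and 10.2% of all genes) and none passed in PC3. SLC4A2, the chloride and bicarbonate exchanger AE2, rose by 0.44 in LNCaP (SE 0.13, adjusted p = 0.0366), with 9.35 and 9.17 in Notch1 cells and 8.87 and 8.78 in GFP cells. SLC4A4 (35285_at), the sodium bicarbonate cotransporter NBCe1, fell by 0.76 (SE 0.14, adjusted p = 0.00383), with 5.33 and 5.55 in Notch1 cells and 6.07 and 6.32 in GFP cells. A second probe set of SLC4A4 gave -0.18 (adjusted p = 0.503), so the LNCaP fall was seen in 1 of its probe sets.

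SLC37A4, the glucose-6-phosphate carrier of the endoplasmic reticulum, rose by 0.53 in LNCaP (SE 0.11, adjusted p = 0.00919), at 9.32 and 9.17 with Notch1 and 8.72 and 8.72 with GFP, and gave 0.01 in PC3. It was the 1 called of 5 carriers of the Golgi and endoplasmic reticulum. SLC75A1, also called MFSD10, fell by 0.42 in LNCaP (adjusted p = 0.0289). No member passed the test in either line among 7 sugar carriers and 9 carriers of carboxylates, bile acids and fatty acids. The same held for 7 members of the organic cation and anion families (SLC22 and SLC47). Of these classes, 4, 6 and 3 members lay under log2 5 on all arrays, where a missing call says little. Over all genes 8.47% rose and 10.2% fell in LNCaP, and 4.36% rose and 2.21% fell in PC3. The sugar carriers ranged between -0.22 and 0.19 in LNCaP. The phosphate carrier SLC20A2 gave -0.40 by its main probe set (adjusted p = 0.0561, or 0.0238 with the replicate block) and fell by 1.08 by the other (1137_at, adjusted p = 0.000746) in LNCaP.

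**Figure D3:**
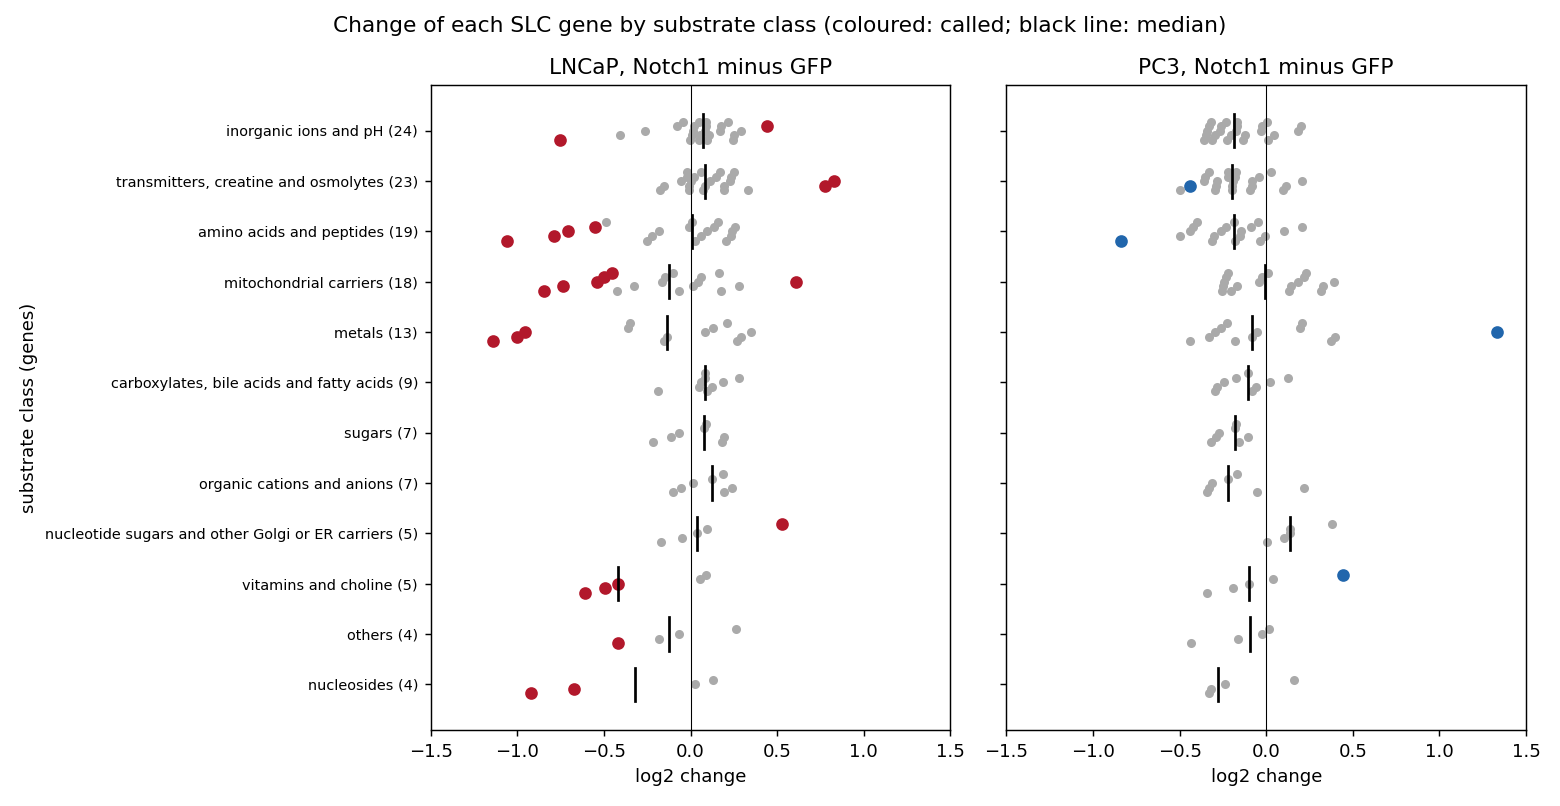
Log2 change with Notch1 of each SLC gene by substrate class, in LNCaP (left) and PC3 (right), with called genes coloured and the class median as a black line; the number of genes stands beside each class. Called falls in LNCaP lie among metals (3), mitochondrial carriers (5), amino acids and peptides (4), vitamins (3) and nucleosides (2), and 1 called point in PC3, SLC31A1, exceeds 1.

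Leaving out 1 array at a time kept 13 of the 24 LNCaP calls. These were SLC1A1, SLC4A4, SLC6A12, SLC7A6, SLC11A2, SLC23A2, SLC25A4, SLC25A16, SLC29A1, SLC29A2, SLC30A4, SLC39A8 and SLC43A1. Of the others, SLC4A2 and SLC5A6 lost their call without any 1 of the 4 LNCaP arrays or either PC3 Notch1 array (adjusted p up to 0.205 and 0.271), and SLC75A1 without any 1 LNCaP array (up to 0.208). SLC38A6 lost it without LNCaP GFP replicate 2, either LNCaP Notch1 array or either PC3 Notch1 array (up to 0.312), and SLC25A13 without either LNCaP GFP array, LNCaP Notch1 replicate 2 or either PC3 Notch1 array (up to 0.249). SLC25A40 lost it without LNCaP GFP replicate 1, LNCaP Notch1 replicate 2 or either PC3 Notch1 array (up to 0.229). SLC25A36 depended on LNCaP GFP replicate 2 and both LNCaP Notch1 arrays (up to 0.234), SLC19A1 on LNCaP GFP replicate 1 and both LNCaP Notch1 arrays (up to 0.148), and SLC37A4 on both LNCaP GFP arrays and LNCaP Notch1 replicate 1 (up to 0.0722). SLC17A3 depended on replicate 2 of LNCaP GFP and of LNCaP Notch1 (up to 0.123), and SLC25A11 on LNCaP GFP replicate 2 and LNCaP Notch1 replicate 1 (up to 0.0731). Raising values to log2 5 left the log2 changes of SLC4A2, SLC5A6, SLC19A1, SLC25A13, SLC25A36 and SLC38A6 as they were but ended their calls (adjusted p = 0.0537 to 0.167), with 0.386 prior degrees of freedom in that fit, against 6.37 without the floor. Median centring ended the calls of SLC4A2 (adjusted p = 0.0588) and SLC25A40 (0.0523).

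The effect of Notch1 was then compared between the lines, as the LNCaP change minus the PC3 change. For 15 members the effects differed, 6 (4.35%) with a higher and 9 (6.52%) with a lower effect in LNCaP, against 6.86% and 8.34% of all genes. With the replicate number as a block 15 were higher and 11 lower, against 11.8% and 12.3% of all genes in that fit. The largest differences were in metal carriers, at -1.40 for SLC11A2 (SE 0.23, adjusted p = 0.00313), -1.35 for SLC39A8 (SE 0.23, adjusted p = 0.00398) and -1.20 for SLC31A1 (SE 0.24, adjusted p = 0.00757). These came about differently, since SLC39A8 and SLC11A2 fell in LNCaP and SLC31A1 rose in PC3. With values raised to log2 5 these 3 differences were unchanged, and the adjusted p was 0.0561 for SLC11A2, 0.0628 for SLC39A8 and 0.0827 for SLC31A1. SLC29A2 (-1.08, adjusted p = 0.0018), SLC23A2 (-1.05, adjusted p = 0.00157) and SLC25A11 (-0.82, adjusted p = 0.00642) also had a lower effect in LNCaP, as did SLC25A4 (-0.85), SLC25A36 (-0.72) and SLC30A4 (-0.66).

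A higher effect in LNCaP was found for SLC6A12 (1.16, adjusted p = 0.00245), SLC17A3 (1.07, adjusted p = 0.0206, or 0.17 and 0.662 with values raised to log2 5), SLC7A8 (0.90, adjusted p = 0.00717), SLC4A2 (0.61, adjusted p = 0.0468), SLC8A2 (0.60, adjusted p = 0.031) and SLC31A2 (0.53, adjusted p = 0.0493). SLC8A2, a sodium and calcium exchanger, and SLC31A2 passed this test without a call in either line. SLC8A2 read 5.89 and 5.97 in LNCaP Notch1 cells and 5.67 and 5.71 in LNCaP GFP cells, against 4.86 and 4.95 in PC3 Notch1 cells and 5.29 and 5.23 in PC3 GFP cells. With the block, the PC3 fall of SLC8A2 (-0.36) had an adjusted p of 0.0491. Members called in LNCaP whose difference between the lines did not pass included SLC1A1, SLC29A1, SLC43A1 and SLC7A6 (adjusted p = 0.109, 0.214, 0.177 and 0.0699) as deposited. The SLC7A6 difference passed with median centring (-0.71, adjusted p = 0.0347), quantile normalization (-0.77, 0.026), values raised to log2 5 (-0.73, 0.042) or without PC3 Notch1 replicate 1 (-0.78, 0.0484), and that of SLC1A1 with quantile normalization (-0.74, 0.048). For SLC25A13, SLC37A4 and SLC25A40 the difference missed the threshold (adjusted p = 0.06, 0.0563 and 0.0927) and passed it with the block (0.0231, 0.0343 and 0.0261), and for SLC6A15 it was 0.0876 and 0.0497 with the block. The SLC25A13 difference also passed with median centring (0.0332), quantile normalization (0.048) and the mean of its probe sets (-1.07, 0.00233). That of SLC37A4 also passed with quantile normalization (0.0117), values raised to log2 5 (0.0366) and averaged probe sets (0.0422).

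Further members missed the threshold without the replicate block, passed it with the block and were named for that. In PC3 these were SLC1A7 (-0.44, adjusted p = 0.0309 with the block), SLC6A11 (-0.35, 0.0482), SLC67A2 (-0.43, 0.0315) and SLC39A6 (0.37, 0.0417), and in LNCaP SLC25A46 (-0.43, 0.0344). The LNCaP fall of SLC25A46 also passed with median centring (adjusted p = 0.0308), a trended prior (0.0386) and the filter on level (0.0489). The effect was higher in LNCaP than in PC3, with the block, for SLC1A7 (0.60, adjusted p = 0.0231), SLC6A11 (0.46, 0.0409), SLC13A3 (0.56, 0.0428), SLC17A1 (0.73, 0.0341), SLC22A13 (0.55, 0.0409) and SLC30A3 (0.55, 0.0356). With the probe sets of each gene averaged, SLC1A7, SLC17A1 and SLC30A3 also passed (adjusted p = 0.0435, 0.0435 and 0.0469). SLC30A3 passed with quantile normalization too (0.0427), and SLC6A11 with values raised to log2 5 (0.0454).

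More members differed between the control cells of the lines (73) than were called with Notch1 in LNCaP (24) or in PC3 (4). Between LNCaP GFP and PC3 GFP cells 51 members (37%) were higher and 22 (15.9%) lower in LNCaP, against 39.8% and 19.8% of all genes. Of the 138 members, 17 were called higher and 10 lower by at least 2-fold. Of all 8226 genes, 1412 were called higher and 752 lower by at least 2-fold. The median difference was 0.18 over the members and 0.20 over all genes. With each array centred on its median, 32 members were higher and 40 lower in LNCaP, and after quantile normalization 31 and 36, so the balance of directions depended on the scaling. The median over all probe sets moved as well, from 0.22 as deposited to -0.06 and -0.04. Calls over all genes were not counted under these scalings. Of the differences named below, that of SLC11A1 turned its direction with the mean of its probe sets, and some became 0 where values were raised to log2 5.

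Carriers of zinc differed in both directions. SLC30A4 (ZnT4) read 7.63 and 7.80 in LNCaP GFP cells and 3.46 and 3.36 in PC3 GFP cells, a difference of 4.31 (SE 0.12, adjusted p = 2.64e-10), and its dim second probe set gave 0.66. SLC39A6, the zinc importer ZIP6, read 8.74 and 8.81 in LNCaP GFP cells and 5.998 and 6.002 in PC3 GFP cells (2.78, SE 0.11, adjusted p = 6.22e-09). SLC30A1, which exports zinc from the cell, and SLC30A9 were higher by 1.62 and 1.46. Of 13 metal carriers, 6 were higher in LNCaP, each by at least 2-fold, with SLC31A1 (1.73) and SLC11A2 (1.52) among them. That was 46.2% higher, and 23.1% were lower, against 39.8% and 19.8% of all genes. SLC39A14 (-1.08), an importer of zinc, iron and manganese, SLC39A7 (-0.58) and SLC11A1 (-0.38, adjusted p = 0.023) were the 3 lower ones. Dim probe sets of SLC11A1 gave 0.36 (adjusted p = 0.0407) and 0.19, and the mean of its probe sets gave 0.06 (adjusted p = 0.643).

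SLC4A4 differed the most of all members, with 6.07 and 6.32 in LNCaP GFP cells and 1.68 and 1.75 in PC3 GFP cells (4.48, SE 0.14, adjusted p = 7.83e-10), and its second probe set gave 4.07. Since PC3 values lay far under log2 5, raising them to it left 1.20 for SLC4A4 and 2.72 for SLC30A4. The mitochondrial carriers were higher in LNCaP in 11 of 18 members (61.1%) and lower in 2 (11.1%), against 39.8% and 19.8% of all genes. Of the 11, SLC25A3, SLC25A11, SLC25A26, SLC25A40 and SLC25A46 lost their call with median centring, and SLC25A14 was then called lower (-0.60, adjusted p = 0.00296). The excess of higher mitochondrial carriers thus depended on the scaling. SLC25A4 (2.35), SLC25A44 (1.60), a branched-chain amino acid carrier, and SLC25A16 (1.49) were at the top. SLC25A12, the aspartate and glutamate carrier aralar, was lower (-1.31), and SLC25A5 (-0.73, adjusted p = 0.0249) lost its call without LNCaP GFP replicate 1 (0.141) or PC3 GFP replicate 2 (0.195). SLC36A1 was higher by 1.52, with 0.21 in its dim second probe set, and SLC13A3, a dicarboxylate carrier, by 1.79, the SLC13A3 values being under log2 5 on every GFP array.

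Among carriers lower in LNCaP, SLC1A3, the glutamate transporter EAAT1, read 3.77 and 3.87 in LNCaP GFP cells and 6.76 and 6.92 in PC3 GFP cells (-3.02, SE 0.13, adjusted p = 1.22e-08). Its second probe set, under log2 5 on all arrays, gave -0.65. SLC7A8 was lower by 1.92 on the log2 scale and SLC1A5, the glutamine carrier ASCT2, by 1.10. SLC75A1 (-1.40), SLC10A3 (-1.35), an orphan of the bile acid family, and SLC4A7 (-1.11), a sodium bicarbonate cotransporter, followed. SLC22A4 (-1.43) and SLC16A7 (-1.22) lay under log2 5 on all GFP arrays. SLC35A1, the CMP-sialic acid carrier, gave -0.75 (adjusted p = 0.00548, or 0.0741 with values raised to log2 5).

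**Figure D4:**
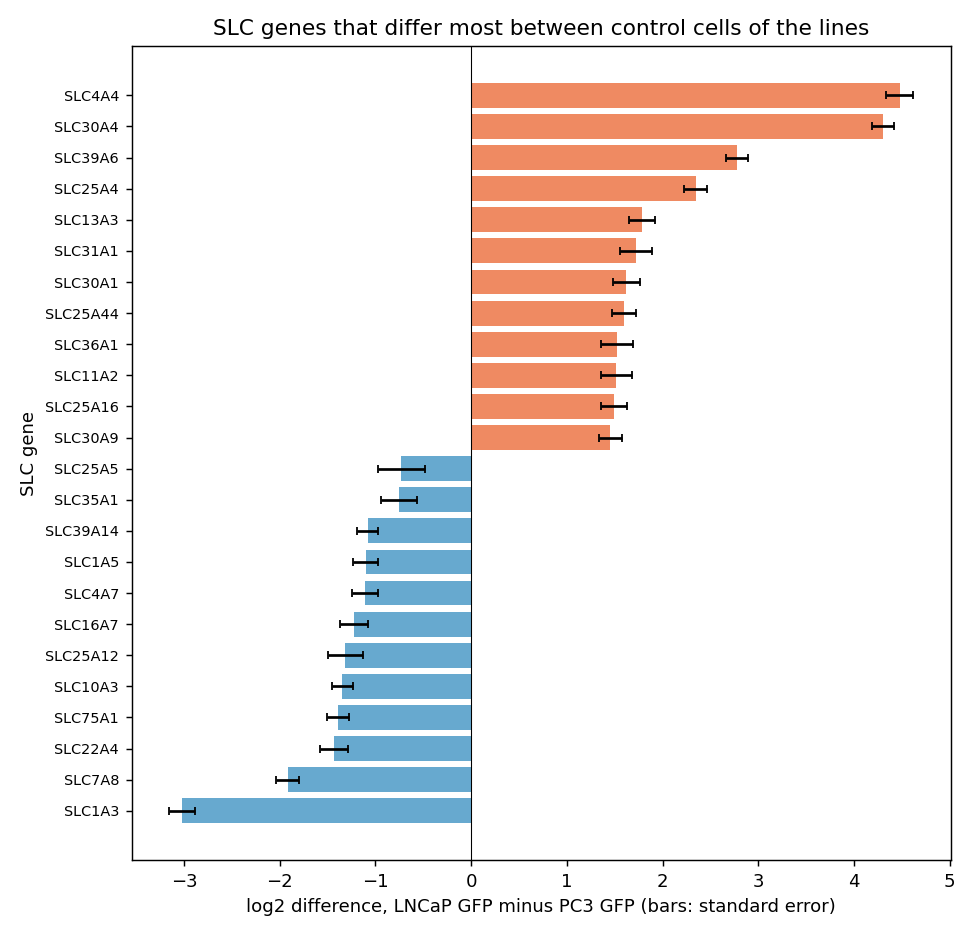
Log2 difference between LNCaP GFP and PC3 GFP cells for the 12 SLC genes with the largest called difference in each direction, with the standard error of the fit as error bars. SLC4A4 (4.48) and SLC30A4 (4.31) are the highest in LNCaP and SLC1A3 (-3.02) the lowest.

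The pumps and enzymes that set the gradients for these carriers were followed as a list of 34 genes, 23 of which were measured. In LNCaP 3 rose and 3 fell, against 8.47% and 10.2% of all genes, and in PC3 2 rose and none fell, against 4.36% and 2.21%. The sodium pump subunit ATP1B1 rose by 0.92 in PC3 (adjusted p = 0.00227) and gave 0.10 in LNCaP, and ATP1B3 rose by 0.58 in PC3 (adjusted p = 0.0483) and fell by 0.51 in LNCaP (adjusted p = 0.0413). Subunits of the proton pump of vesicles moved both ways in LNCaP, where ATP6V1B2 rose by 1.14 and ATP6V1E1 by 0.44 and ATP6V1H and ATP6V1A fell by 0.81 and 0.73. The carbonic anhydrase CA12 rose by 0.98 in LNCaP (adjusted p = 0.00136). In control cells 16 of the 23 genes were higher in LNCaP and 1, CA12, was lower, against 39.8% and 19.8% of all genes, and 12 of the 14 proton pump subunits were among the higher ones.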

How the data were processed

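Total RNA of LNCaP and PC3 cells was hybridized to Affymetrix U95Av2 arrays, 2 for each of 4 groups. The authors deposited log2 values per probe set, made with RMA (background correction, normalization and summary of probes), and used limma. Their tool versions are not given in the sources available here. These values were analysed as deposited. Of 12625 probe sets, 67 control sets were left out. One limma 3.58.1 model (R 4.3.3) with a mean per group was fitted to all 8 arrays (4 residual and 6.37 prior degrees of freedom), with eBayes, two-sided tests and Benjamini-Hochberg adjustment over 12558 probe sets. The code was tested on simulated data. Calls were made where the adjusted p was under 0.05.

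The contrasts were Notch1 minus GFP in each line, the difference of these effects (LNCaP minus PC3), and control cells of LNCaP minus those of PC3. The last contrast shares its GFP arrays with the others. Genes were named from the platform annotation, and all 138 symbols matched RefSeq of GRCh38.p14. Several are recent renamings, such as SLC75A1 (MFSD10). Members, substrate classes and lists were chosen with earlier results of these data known. Named genes were all members called in a line or in the difference between lines, the 12 largest called differences in each direction between the control cells, HES1, markers and the called genes of the pump list. SLC11A1, SLC20A2, SLC25A1, SLC25A3, SLC25A14, SLC25A26, SLC28A1, SLC28A2, SLC39A7 and the members called with the replicate block but not without it were named after their values were seen.

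Same-numbered replicates deviated together (r = 0.124 to 0.545 in all 6 pairs of groups, across probe sets), while the meaning of the numbers is not stated. The fit without them was kept, and values with the number as a block are given where a call with Notch1 or in the difference between lines changed. Between the control cells the block ended no call and added 8. Alternatives were median centring, quantile normalization, a filter at the 25th percentile of level, values raised to log2 5, only the arrays compared, the replicate block, a trended and robust prior, averaging the probe sets of a gene, and leaving out each array. The number of arrays limits the precision.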

Additional observations from a re-analysis of the deposited data

Results flagged for a closer look

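The effect of Notch1 differed between the lines, by limma's test of the difference itself, for 15 SLC genes. The LNCaP effect minus the PC3 effect was lower for SLC11A2 (-1.40), SLC39A8 (-1.35), SLC31A1 (-1.20), SLC29A2 (-1.08), SLC23A2 (-1.05), SLC25A4 (-0.85), SLC25A11 (-0.82), SLC25A36 (-0.72) and SLC30A4 (-0.66). It was higher for SLC6A12 (1.16), SLC17A3 (1.07), SLC7A8 (0.90), SLC4A2 (0.61), SLC8A2 (0.60) and SLC31A2 (0.53). Under every alternative run, 5 of these 15 stayed past the threshold (SLC6A12, SLC7A8, SLC23A2, SLC25A11 and SLC29A2), and 8 did so whichever array was left out, the others being SLC11A2, SLC31A1 and SLC39A8. Of the remaining 7, SLC25A4 lost its call without PC3 Notch1 replicate 2 (adjusted p = 0.0503) and with the mean of its probe sets (-0.18, adjusted p = 0.457). SLC17A3 lost it without replicate 2 of LNCaP GFP or of LNCaP Notch1 or without PC3 Notch1 replicate 1 (adjusted p up to 0.0907), and with values raised to log2 5 its difference was 0.17 (adjusted p = 0.662). SLC30A4 lost it without LNCaP GFP replicate 2 or any 1 Notch1 array (up to 0.106) and with the mean of its probe sets (-0.29, adjusted p = 0.193), and SLC25A36 without any 1 array but LNCaP GFP replicate 1 and PC3 GFP replicate 2 (up to 0.157). SLC4A2, SLC8A2 and SLC31A2 kept it when PC3 GFP replicate 2 was left out and lost it without any other array (up to 0.147, 0.116 and 0.169). Median centring also ended the calls of these 3 (adjusted p = 0.0776, 0.0568 and 0.0951). Quantile normalization ended those of SLC8A2 (0.0726), SLC31A2 (0.1) and SLC25A36 (0.0511), a trended prior that of SLC31A2 (0.0618), and values raised to log2 5 those of SLC4A2 (0.0875), SLC25A36 (0.129), SLC11A2 (0.0561), SLC39A8 (0.0628) and SLC31A1 (0.0827).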

How the results depend on the processing

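Of the called results named, 1 turned its direction, the LNCaP GFP minus PC3 GFP difference of SLC11A1 (0.0579 with the mean of its probe sets, -0.38 as reported). In PC3, 1 member was lower after median centring, after quantile normalization or with values raised to log2 5, and the PC3 arrays alone gave 1 higher and 1 lower. With the replicate number as a block, 4 were higher and 7 lower in PC3, and 15 had a higher effect in LNCaP than in PC3. Over all genes the shares in that fit were 7.78%, 4.87% and 11.8%. For the other alternatives in this paragraph the calls over all genes were not counted. Leaving out 1 array gave 1 to 2 higher and 1 to 8 lower members in PC3, the 8 without PC3 GFP replicate 2, and 2 to 6 higher members in LNCaP. For the difference between lines it gave 2 to 17 higher members, the 17 without PC3 GFP replicate 2. Median centring left 3 higher members in LNCaP and 3 in the difference, for which averaging the probe sets of each gene gave 10. Between the control cells, centring gave 32 higher and 40 lower members in LNCaP, quantile normalization 31 and 36, and values raised to log2 5 gave 33 higher. The median over all probe sets in that comparison was 0.22 as deposited, -0.06 after centring and -0.04 after quantile normalization. The cause was not tested, except that raising values to log2 5 sets dim members to 0 by construction. Some calls of brighter members, SLC31A1, SLC39A8 and SLC11A2 among them, also ended in that fit, at unchanged log2 values. It had 0.386 prior degrees of freedom, against 6.37 without the floor. The 36 members under log2 5 on all arrays lie where the array background limits any statement.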
